A study of Mus musculus with 32 samples.

Results

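Mouse-host experiment 2 is 1 of 4 experiments in which parathyroid gland cells grew from mouse embryonic stem cells (ESC) inside a host embryo that could not make the gland. Its members are the 4 libraries that the sample titles place in that experiment, of 32 libraries in the series. They were compared with the 12 libraries of mouse-host experiments 1, 3 and 4, which carry the same genotype. The hosts were Gcm2-/- mice. Their background was BDF1B6, the ESCs carried Pth-tdTomato, and all 16 libraries are labelled 9 weeks old. Experiments 1, 2 and 3 are labelled female and experiment 4 male, and the labels do not say whether this is the sex of the host or of the donor cells. A library holds the RNA of 10 to 20 tdTomato cells, picked with a micromanipulator. Values of 8 control libraries, from mice labelled C57BL/6-Pthtm1(P2A-tdTomato)/+, are given for reference. Control experiment 1 is labelled male and 8 weeks old, and control experiment 2 female and 11 weeks old. The labels call the 4 libraries of an experiment biological replicates but do not say which animals they came from, so the p-values measure the spread between libraries, which may be partly technical. Experiment 2 is 1 experiment against 3, so its animals, day and handling cannot be told apart from one another.

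Parathyroid chief cells store and release parathyroid hormone, and the calcium-sensing receptor on their surface slows that release when blood calcium is high. Gcm2 is the transcription factor gene without which the gland does not form, and blastocyst complementation lets donor stem cells take the place that the host leaves empty. Fibroblasts of the surrounding connective tissue make fibrillar collagens and the small proteoglycans, such as decorin, that coat them. SMART-Seq makes cDNA along whole transcripts, so the yield from long transcripts depends on how complete the RNA and its reverse transcription are.

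Kdm5d, Uty, Ddx3y and Eif2s3y, which lie on the Y chromosome, summed to 109 to 138 CPM in control experiment 1, labelled male. They summed to 1.07 to 2.39 CPM in experiment 2 and to 1.61 to 2.92 in experiment 4, so the libraries labelled male in experiment 4 lay near the female-labelled ones, far below the male-labelled control, and the label is not used below as the sex of the cells. The 4 libraries of experiment 2 held 12974807, 12426284, 13094120 and 9470744 reads, within or just below the 9514298 to 15098391 reads of the other 12. They showed 12357 to 12718 detected genes, against 11606 to 13113. The defining markers of the labelled cell type were present in each of them. Pth, which encodes parathyroid hormone, took 6.88%, 8.23%, 8.60% and 7.72% of reads in replicates 1 to 4. Chga, which encodes the granule protein chromogranin A, took 24.3%, 21.9%, 21.7% and 21.1%. Replicate 4 stood apart from the other 3 in connective-tissue genes, described below, and results that rest on it are given with and without it. The median Pearson correlation of log2 CPM (a gene's reads as a share of the library's scaled total, the usual unit of sequencing depth) between libraries of experiment 2 was 0.79 over 6 pairs, with a range of 0.77 to 0.82. Across 16 pairs each, the median was 0.74 between experiment 2 and experiment 1, 0.79 with experiment 3 and 0.78 with experiment 4.

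Few genes set experiment 2 apart from the mean of the other 3 experiments. Of 12181 genes tested, 11 were called at an adjusted p below 0.05 in edgeR's quasi-likelihood test, which is 0.0903% of the genes tested. Hspa2, Son, Cpxm1, Spp1 and Apba2 were higher, and Clu, Zcchc18, Aqp5, F3, P2rx6 and H2-Ab1 were lower. The higher calls were 0.041% and the lower calls 0.0493% of the genes tested. At an unadjusted p below 0.05 there were 1001 genes, or 8.22%. Against experiment 1 alone 69 genes were called (0.566%), against experiment 3 16 (0.131%) and against experiment 4 21 (0.172%). These 3 comparisons share the libraries of experiment 2. In the same fit, 341 genes were called when experiment 1 was set against the rest, 16 for experiment 3 and 15 for experiment 4. The count rests on single libraries: it was 1 gene (Hspa2) without replicate 4 of experiment 2, 0 without replicate 2, where 852 genes had an unadjusted p below 0.05, 3 without replicate 3 and 8 without replicate 1. It was 6 or 7 without replicate 1 of experiment 1, replicate 1, 3 or 4 of experiment 3, or replicate 4 of experiment 4. Without replicate 4 of experiment 2 the fold changes of all 11 genes kept their sign, and adjusted p-values other than that of Hspa2 ran from 0.0865 (Clu and others) to 0.213 (H2-Ab1). In simulated counts of the same design, over 12195 genes, the test recovered 20% of genes changed 2-fold and 44% of genes changed 4-fold, with 6 false calls, and the rule of a call against each experiment recovered 1% and 26%. The simulated experiments 1, 3 and 4 shared the same mean for each gene. No trend with transcript length and no outlying library was simulated, so these shares need not hold for the real counts.

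Zcchc18, which encodes a zinc finger protein, was the 1 gene called against each of the other 3 experiments, 0.00821% of the genes tested. Its levels in replicates 1 to 4 of experiment 2 were 68.3, 49.0, 65.9 and 58.1 CPM, and those of the other 12 libraries ran from 95.2 to 254 CPM with a median of 160.4. All 4 libraries lay below all 12. The log2 fold change against the mean of the other 3 experiments was -1.46 (SE 0.23, edgeR adjusted p = 0.0123). It was -1.51, -1.53 and -1.32 against experiments 1, 3 and 4. The 8 control libraries spanned 76.6 to 329 CPM, so experiment 2 lay below these too. The difference was called under 28 of 33 alternative settings, and without replicate 4 its adjusted p was 0.0877. With scaling factors from the 16 libraries alone or from DESeq2, 0 genes were called against each experiment by edgeR, and DESeq2's own test gave 32. Fewer cells with a transcript and less of it per cell cannot be told apart in these pools, for this gene or any other below.

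The other called genes are named because the whole called set is shown, after its values were seen. Clu, which encodes the secreted chaperone clusterin, read 967, 1006, 813 and 885 CPM in experiment 2. The other 12 libraries read 1288 to 2585 CPM, again with no overlap, and the controls 832 to 1725. Its log2 fold change was -0.99 (SE 0.15, edgeR adjusted p = 0.0123). Hspa2, a member of the 70-kilodalton heat-shock family, read 926, 1226, 960.0 and 883 CPM, above the 387 to 674 CPM of the other 12 libraries. Its log2 fold change was 0.91 (SE 0.12, adjusted p = 0.00468), and the controls spanned 615 to 1289.8 CPM. Hspa2 was called under 31 of 33 settings, more than any other of the 11 genes. Son, whose product is a splicing cofactor of nuclear speckles, read 210.2, 157, 155 and 168 CPM, against 85.2 to 135 CPM in the other 12 libraries and 110.3 to 179.5 in the controls. Its log2 fold change of 0.69 (SE 0.13, adjusted p = 0.0427) became 0.31 (adjusted p = 0.811) once the trend with transcript length, described below, was taken out. Its transcript is 6980 bases long.

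**Figure D1:**
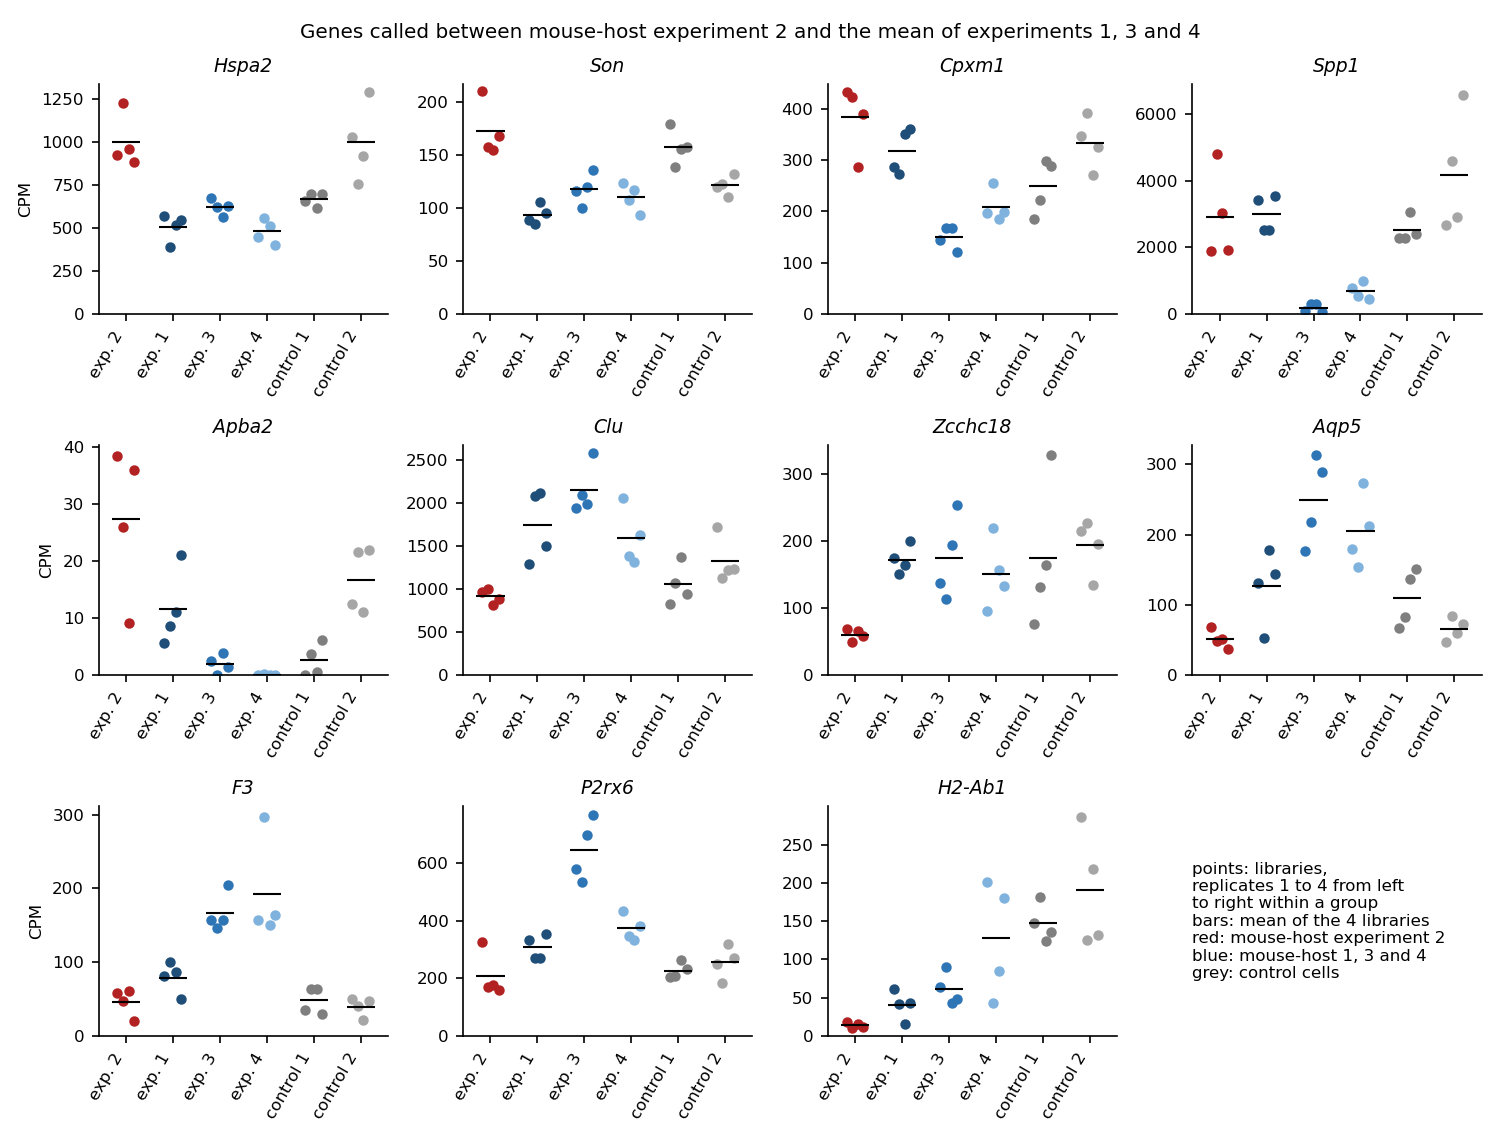
CPM of the 11 called genes in every library (vertical axis, starting at 0) of mouse-host experiments 2, 1, 3 and 4 and of the 2 control experiments; points are libraries and bars are means of 4. Hspa2, Son, Clu and Zcchc18 show no overlap between experiment 2 and the other 12 mouse-host libraries, while Spp1 and Cpxm1 in experiment 2 overlap experiment 1.

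Spp1, Cpxm1 and Apba2 were nearer to experiment 1 than to experiments 3 and 4. Spp1, which encodes osteopontin, a secreted phosphoprotein, read 1903, 4812, 3021 and 1932 CPM in experiment 2. Experiment 1 spanned 2516 to 3557 CPM, experiment 3 50.5 to 312 and experiment 4 449 to 994. The 2 groups with high values thus overlapped, as did the controls, at 2279 to 6572 CPM. The log2 fold change was 2.01 against the mean (SE 0.34, adjusted p = 0.0290) and -0.04 against experiment 1 (adjusted p = 0.988). Cpxm1, a secreted carboxypeptidase-like protein, read 432, 423, 287 and 391 CPM, against 272 to 360.2 in experiment 1, 121 to 167 in experiment 3 and 185 to 254 in experiment 4. Its log2 fold change was 0.83 (SE 0.13, adjusted p = 0.0123) and 0.27 against experiment 1 alone (adjusted p = 0.573). Apba2, an adaptor that binds the amyloid precursor protein, read 38.4, 26.0, 9.09 and 36.0 CPM. It read 5.63 to 21.1 CPM in experiment 1, at most 3.79 in experiment 3 and at most 0.0894 in experiment 4. The fitted log2 fold change was 4.91 (SE 0.77, adjusted p = 0.0123), and it depends on the prior count because 4 of the 12 libraries had no read. Against experiment 1 alone it was 1.23 (adjusted p = 0.697).

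Of the other 4 lower genes, 3 encode membrane proteins with transport, clotting or channel roles and the fourth an antigen-presenting protein. Aqp5, a water channel, read 68.6, 47.7, 51.9 and 36.6 CPM, against 52.4 to 313 in the other 12 libraries and 47.1 to 151 in the controls. Its log2 fold change was -1.86 (SE 0.28, adjusted p = 0.0123). The overlap came from replicate 1 of experiment 2 and replicate 2 of experiment 1. F3, which encodes tissue factor, the starter of the clotting cascade, read 58.3, 47.1, 61.0 and 19.7 CPM against 49.5 to 297, with a log2 fold change of -1.55 (SE 0.28, adjusted p = 0.0409). Its levels in experiment 2 overlapped the controls, at 21.7 to 64.2 CPM. P2rx6, a subunit of ATP-gated channels, read 327, 168, 176 and 158 CPM against 271 to 766, with a log2 fold change of -1.02 (SE 0.18, adjusted p = 0.0373), and the controls spanned 182 to 319. Replicate 1 was the library that overlapped the other experiments.

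H2-Ab1, which encodes the beta chain of an MHC class II molecule, was a called member of the lists. It read 18.2, 10.6, 16.2 and 11.5 CPM in experiment 2, 15.9 to 61.4 in experiment 1, 42.7 to 89.9 in experiment 3 and 43.4 to 202 in experiment 4. The controls stood higher, at 124 to 286 CPM. The log2 fold change was -2.27 (SE 0.41, adjusted p = 0.0427), and it was called under 13 of 33 settings. Of the 8 genes of MHC class II presentation and dendritic cells, 3 were tested, 3 had negative fold changes and 1 was called. The summed level of the 8 genes was 32.8, 24.2, 36.5 and 12.1 CPM in experiment 2 and 43.7 to 251 in the other 12 libraries. All 4 sums lay below all 12. They are not separate from the called gene, since H2-Ab1 itself held 18.2, 10.6, 16.2 and 11.5 CPM of them. Cd74, the invariant chain that class II molecules need, read at most 0.399 CPM in experiment 2, and the dendritic cell receptor gene Flt3 at most 0.0764. Neither gene is compared with the other 12 libraries here.

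Among the 12181 genes, 41 (0.337%) had all 4 libraries of experiment 2 above or all 4 below the other 12. Of these, 35 averaged at least 8 CPM, 20 above and 15 below. Uncalled examples, picked after their values were seen, are Zfp36l1, an RNA-binding protein that hastens mRNA decay, and Gtf2i, a general transcription factor. Zfp36l1 read 363, 361, 341 and 314 CPM against 84.3 to 246 in the other 12. Gtf2i read 106, 157, 119 and 178 CPM against 30.1 to 103.

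The genes of parathyroid identity did not separate experiment 2. Of 16 listed genes, 15 were tested, 14 had positive fold changes and 0 were called by edgeR, with 4 at an unadjusted p below 0.05 and 1, Vdr, called by DESeq2, which called 1.44% of all genes tested. Their median log2 fold change was 0.23, beside 0.03 over all genes tested, of which 52.7% were positive. It was 0.11 with the length trend taken out. Pth read 71405, 81199, 85618 and 75258 CPM, against 72886 to 136802 in the other 12 libraries (log2 fold change -0.24, SE 0.12, edgeR adjusted p = 0.611). Gcm2 read 1142, 953, 989 and 942 CPM, between the 570.4 to 814 of experiment 1 and the 1149 to 1477 of experiment 3, with a fold change of 0.15 (SE 0.12, adjusted p = 0.843). Casr, the calcium-sensing receptor gene, read 931, 794, 543 and 638 CPM against 272 to 785. For Pth, experiment 2 overlapped experiments 1 and 4, and for Casr experiments 3 and 4.

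Among the receptors and cofactors of the gland, Vdr, the vitamin D receptor gene, read 704, 723, 569.7 and 567 CPM against 295 to 615 in the other 12 libraries. Its log2 fold change was 0.45 (SE 0.13, adjusted p = 0.286), the smallest adjusted p of the list. Kl, which encodes the FGF23 co-receptor Klotho, read 1213, 1548, 1115 and 1297 CPM against 677 to 1789. Fgfr1, the receptor that Klotho pairs with, read 21.5, 17.4, 23.3 and 56.6 CPM against 6.02 to 56.7, with replicate 4 the highest of the 4. Rxra, the partner of the vitamin D receptor, read 4.18, 16.7, 3.51 and 10.0 CPM against 0 to 6.42. Trpc1, a cation channel gene, read 1.07 to 7.15 CPM against 0 to 15.5. Both genes were low and uneven in all 4 experiments.

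Among the developmental regulators, Tbx1, a pharyngeal transcription factor, showed the widest range. It read 90.1, 85.6, 54.9 and 77.0 CPM in experiment 2, 54.3 to 92.4 in experiment 1, 6.96 to 85.4 in experiment 3 and 8.67 to 23.2 in experiment 4 (log2 fold change 1.17, SE 0.42, adjusted p = 0.427). Experiments 2 and 1 overlapped, and experiment 4 lay below both. Eya1, a transcriptional coactivator in organ development, read 44.8, 79.4, 94.4 and 89.0 CPM against 22.4 to 74.9, with a fold change of 0.61 (SE 0.26, adjusted p = 0.534). Gata3, which acts upstream of Gcm2, read 531 to 755 CPM against 354 to 689.7, and Pax9, a pharyngeal pouch regulator, 179 to 216 CPM against 83.2 to 317. Sox3 had 0 reads in all 16 mouse-host libraries. Chga read 252535, 216253, 215965 and 205405 CPM against 181537 to 235074, with a fold change of 0.07 (SE 0.07, adjusted p = 0.886). The 6 tested genes of the granin and peptide-processing list held 5 positive fold changes and 0 calls, with a median of 0.30.

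**Figure D2:**
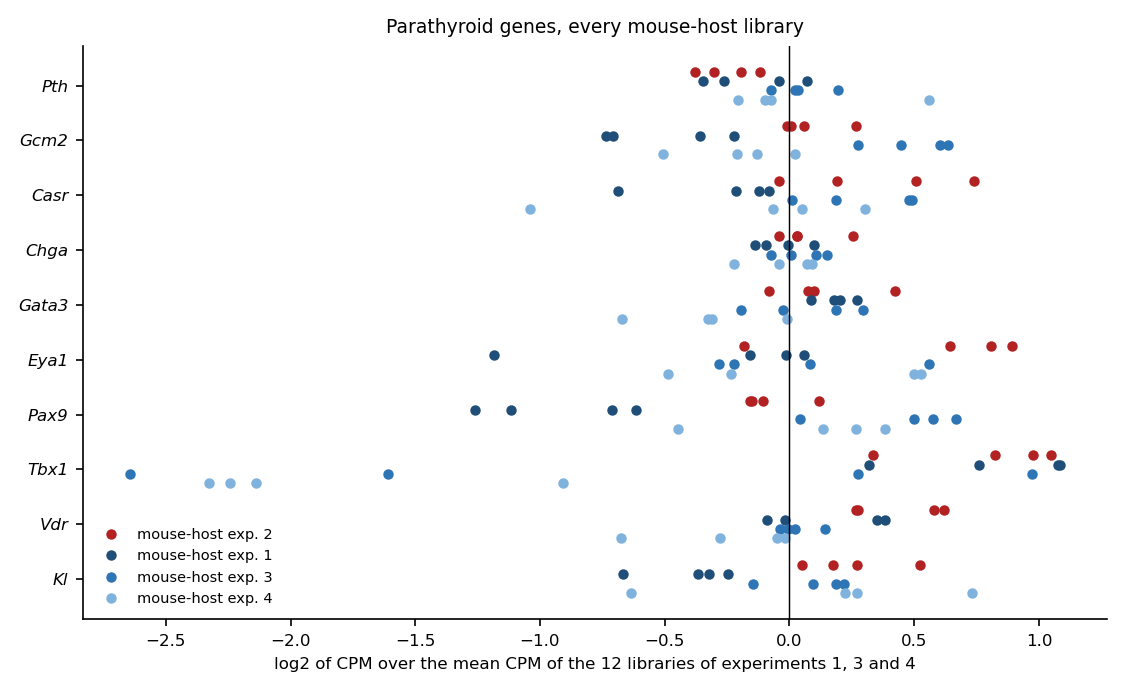
Log2 of each library's CPM over the mean CPM of the 12 libraries of experiments 1, 3 and 4, for 10 parathyroid genes (rows) in the 16 mouse-host libraries (points, coloured by experiment). Experiment 2 overlaps at least 1 other experiment for every gene drawn, and Tbx1 has the widest range, with experiment 4 low.

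Differences between experiment 2 and the others followed transcript length across genes. With genes put in 10 groups by length, the median log2 fold change was -0.15 in the shortest group (195 to 1034 bases) and 0.35 in the longest (4482 bases and above). The share of genes with a positive fold change went from 29.2% to 72.5%. The median went from -0.17 to 0.60 against experiment 1, from -0.15 to 0.15 against experiment 3 and from -0.17 to 0.13 against experiment 4. Spearman's rho between log2 fold change and length was 0.26 over the 12181 genes, which share libraries and are not independent replicates. It was 0.28 against experiment 1, 0.12 against experiment 3 and 0.17 against experiment 4. For GC content the rho was 0.06 against the mean, -0.17 against experiment 1, 0.14 against experiment 3 and 0.22 against experiment 4, so its sign differed between experiments and it exceeded the rho for length against experiments 3 and 4. Longer genes also had lower levels, with a median of 11.3 CPM in the longest group and 33.4 in the shortest.

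A slope was computed for each library, as the change in log2 level relative to the 16-library mean for each doubling of transcript length. The slopes of experiment 2 were -0.0049, 0.104, 0.0014 and 0.0835 in replicates 1 to 4. Those of the other 12 libraries ran from -0.343 to 0.0901, so the groups overlapped. The mean was 0.0459 ± 0.0557 (SD, n = 4) in experiment 2, -0.221 ± 0.0617 (SD, n = 4) in experiment 1, -0.0297 ± 0.0529 (SD, n = 4) in experiment 3 and -0.0749 ± 0.187 (SD, n = 4) in experiment 4. The difference of 0.154 gave p = 0.0445 in an exact two-sided permutation test of 4 libraries against 12 and 0.189 after adjustment over 10 library measures, so it did not hold up against the number of measures. Without experiment 1 the difference was 0.0982 (exact permutation p = 0.184), and without replicate 2 of experiment 2 it was 0.135 (p = 0.114). Leaving out each of the 16 libraries in turn, p was below 0.05 in 7 cases. With experiments as the units, 1 against 3 cannot give a p below 0.25.

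The lowest slope of the other 12 belonged to replicate 1 of experiment 4. Genes over 4 kilobases took 7.33%, 8.49%, 7.34% and 8.57% of reads in experiment 2 and 4.75% to 8.37% in the other 12 libraries (difference 1.42 percentage points, exact permutation p = 0.0423, adjusted 0.189). Genes under 1 kilobase took 13.4%, 11.9%, 13.5% and 11.9%, against 12.4% to 17.4%. In both measures replicates 2 and 4 of experiment 2 stood further from the other experiments than replicates 1 and 3. Within genes, the mean transcript length weighted by TPM differed by 0.0120 log2 units (exact permutation p = 0.409), so a shift between short and long isoforms of a gene was not detected. Of the 11 called genes, 0 were in the shortest group and 1, Son, in the longest. With the length trend taken out of each library, 12 genes were called, 10 of them among the 11.

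**Figure D3:**
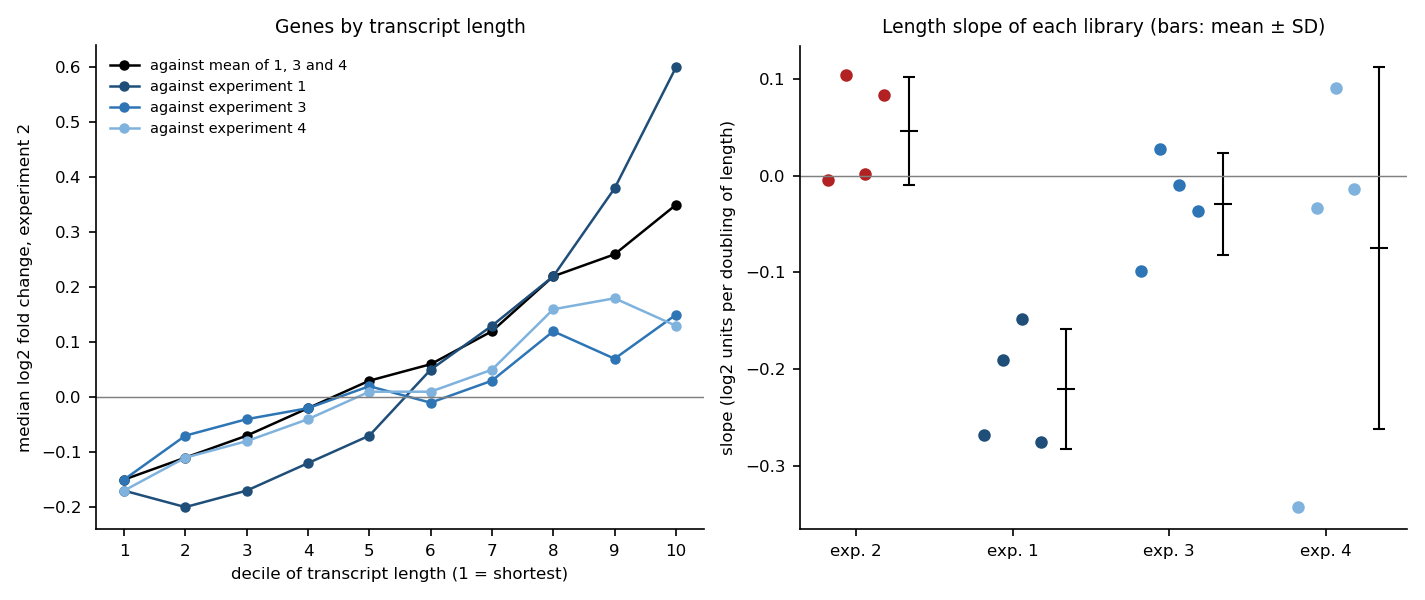
Left, median log2 fold change of experiment 2 (vertical axis) in 10 groups of genes by transcript length, against the mean of the other experiments and against each; right, the length slope of each mouse-host library in log2 units per doubling of length, with mean ± SD of 4 libraries. Every line climbs from short to long genes, steepest against experiment 1, whose 4 slopes lie from -0.275 to -0.148.

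Gene lists of short and long transcripts leaned with that trend. They held 0 edgeR calls and are described by counts and medians. DESeq2 called 175 of the 12181 genes, or 1.44%, and 13 on any list: Peg3, Gnas, Vdr, Jun and Ifit1 with positive and Hspa8, Sdhb, Ctsz, B2m, Birc5, Mki67, P4ha2 and H2-Ab1 with negative fold changes. Of 27 tested genes with very long transcripts, which encode large proteins of the nucleus and cytoskeleton, 23 had positive fold changes, with a median of 0.42. It was 0.18 with the length trend taken out, when 15 were positive, and 0.21 without replicate 4. Kmt2c, a histone methyltransferase gene, read 51.1, 57.2, 31.9 and 56.6 CPM, against 0.0813 to 17.97 in experiment 1 and 15.6 to 66.1 in experiments 3 and 4. Birc6, which encodes a large ubiquitin ligase that restrains cell death, read 17.2, 30.5, 29.3 and 58.6 CPM against 2.83 to 38.5. The gap was widest to experiment 1 for both genes.

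The lists of short genes leaned the other way. Of 34 cytosolic ribosomal protein genes, 30 had negative fold changes (median -0.12), as had 29 of 31 nuclear respiratory chain genes (median -0.20), 18 of 23 mitochondrial ribosomal protein genes (median -0.23) and all 13 mitochondrially encoded genes (median -0.15). Their median transcript lengths were 771, 791, 1026 and 784 bases, beside 2306 over all genes tested. With the length trend taken out, the medians were 0.02, -0.03, -0.09 and 0.0, and 22 of the 34 cytosolic ribosomal protein genes were positive. Of the nuclear respiratory chain genes 25 of 31 stayed negative, as did 14 of 23 mitochondrial ribosomal protein genes and 7 of 13 mitochondrially encoded genes. Of 18 genes of ER translocation and signal peptide cleavage, 14 were negative (median -0.13, and -0.01 without the trend).

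Some lists leaned without following length. All 13 cytosolic heat-shock genes, which encode chaperones that hold proteins in shape, had negative fold changes; 0 were called by edgeR, 2 had an unadjusted p below 0.05 and 1, Hspa8, was called by DESeq2. Their median was -0.27, -0.30 with the length trend taken out and -0.09 without replicate 4. The summed level was 3637, 3507, 3444 and 3358 CPM in experiment 2 and 3681 to 4755 in the other 12 libraries, with no overlap. The gap was narrow, from 3637 to 3681 CPM. Of the 41 list and marker sums, only this one and the MHC class II sum did not overlap. Hspa8, the constitutive member, read 1621, 1544, 1301 and 1463 CPM against 1566 to 2190.4 (log2 fold change -0.40, SE 0.10, adjusted p = 0.237). Hspa2, called in the other direction, was not on that list. Of 13 tested imprinted genes, those read from 1 parental copy, 11 had positive fold changes and 0 were called by edgeR, against 2, Gnas and Peg3, by DESeq2 (median 0.66, and 0.63 without the trend). Gnas, which encodes a G protein subunit that raises cyclic AMP, read 10046, 8048, 7992 and 7080.4 CPM against 3300.5 to 7953 (log2 fold change 0.66, SE 0.13, adjusted p = 0.0994). Peg3, a zinc finger gene, read 226, 314, 179 and 304 CPM against 29.4 to 206 (log2 fold change 1.08, SE 0.25, adjusted p = 0.165). For each of these 2 genes, 3 of the 4 libraries of experiment 2 lay above all 12 others. Both genes are named after their values were seen. The share of all tested genes with 3 such libraries was not counted, so this count does not set the imprinted list apart.

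The remaining functional lists held 0 edgeR calls, with 0 to 5 genes each at an unadjusted p below 0.05. Cholesterol synthesis genes were positive for 14 of 18 (median 0.21), glycolysis genes for 11 of 18 (median 0.07) and junction genes for 12 of 18 (median 0.17). Genes of the unfolded protein response were negative for 13 of 19 (median -0.08), lysosomal genes for 14 of 22 (median -0.14), circadian clock genes for 12 of 16 (median -0.19), interferon-stimulated genes for 13 of 18 (median -0.37) and genes of MHC class I presentation for 9 of 15 (median -0.20). Genes of glutathione and detoxification were positive for 12 of 20 (median 0.10). Among these lists, dropping replicate 4 turned the sign of the median for the unfolded protein response (0.01) and for detoxification (-0.05).

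**Figure D4:**
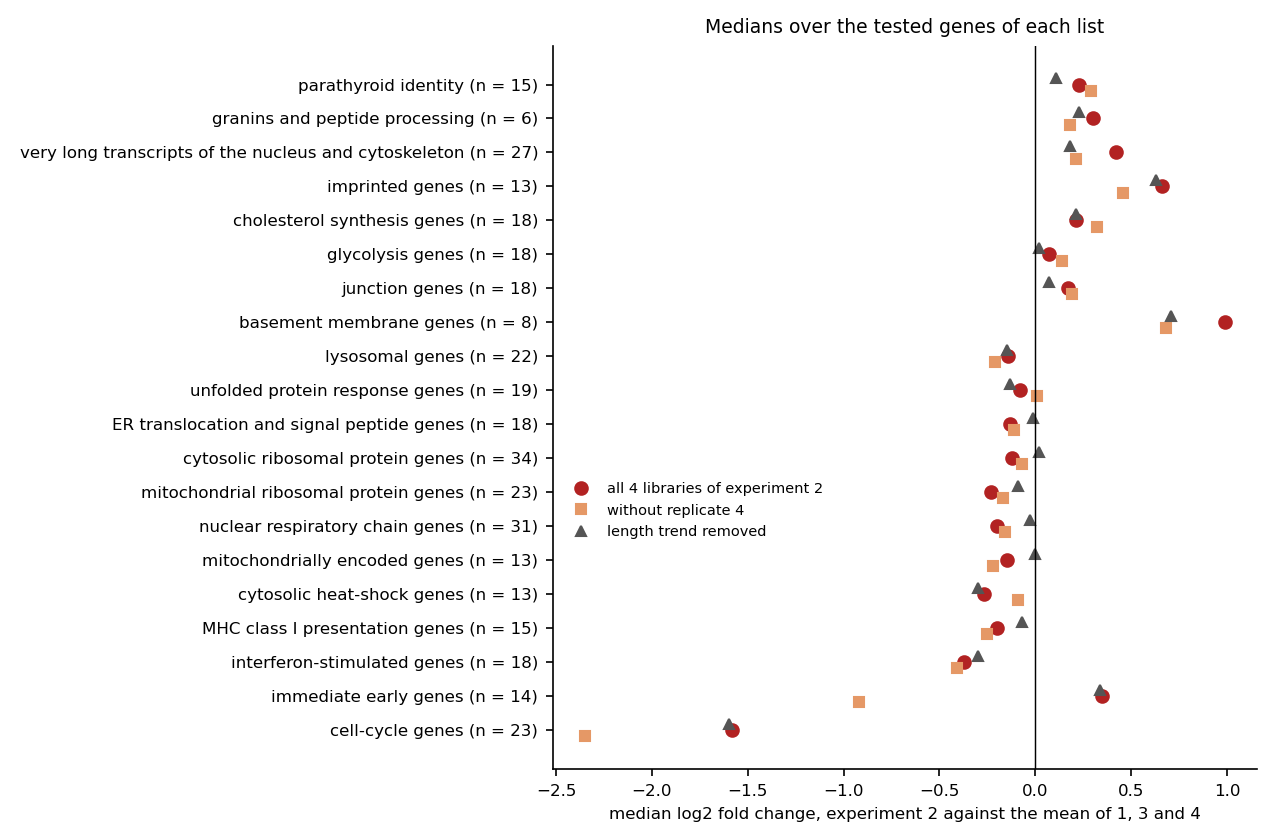
Median log2 fold change of experiment 2 against the mean of experiments 1, 3 and 4 (horizontal axis) over the tested genes of 20 lists, with all 4 libraries, without replicate 4 and with the length trend taken out. Short-gene lists move toward 0 when the trend is taken out, and the immediate early list passes from 0.35 to -0.92 without replicate 4.

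Among the 16 mouse-host libraries, most listed collagens and the proteoglycan genes Dcn and Lum were high in replicate 4 of experiment 2 alone. Some other matrix genes, given below, were not. Col3a1, a fibrillar collagen of loose connective tissue, read 0.241, 0, 0.0764 and 1143 CPM in replicates 1 to 4 of experiment 2, from 3, 0, 1 and 11064 reads. The highest of the other 12 mouse-host libraries held 40 reads, 3.61 CPM. Dcn, which encodes decorin, read 6.11, 0, 0.382 and 550.3 CPM, from 76, 0, 5 and 5325 reads, and at most 0.471 CPM in the other 12. A count of 0 reads allows up to 0.229 to 0.310 CPM in these 4 libraries, for counting error only, since there are no molecular identifiers. One library thus held nearly all reads of both genes among the 16.

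Type I and type VI collagens, the other main fibre formers, showed the same split. Col1a1 read 0, 0, 0.0764 and 222 CPM and Col1a2 0, 0, 0.0764 and 282 CPM, against at most 0.0903 and 1.28 CPM in the other 12 libraries. Col6a1 read 0, 0, 0.153 and 66.4 CPM and was at 0 in all 12. Col14a1, which binds the fibres, read 0, 0, 0 and 104 CPM. The 10 genes of the collagen list summed to 6.35, 12.5, 0.611 and 1993 CPM, against 0 to 18.6 in the other 12, and replicate 4 was the highest of the 16 libraries for 9 of them. The tenth, Col12a1, read 0.0804, 12.0, 0 and 13.2 CPM against 0 to 18.1. The small leucine-rich proteoglycans, which organise the fibres, summed to 11.2, 0.319, 2.22 and 745 CPM against 4.23 to 34.5. Of the 8 listed, 6 were detected and replicate 4 was the highest of 16 for all 6, while Bgn and Fmod had 0 reads in the 16 libraries. Lum, lumican, read 74.4 CPM in replicate 4 and at most 0.0804 in replicates 1 to 3. Ogn, osteoglycin, differed from the rest in being present elsewhere: it read 5.06, 0.0798, 1.76 and 100.03 CPM in experiment 2 and 3.45 to 34.3 in the other 12.

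Some matrix genes did not single out replicate 4. In the elastic fibre list, Efemp2 read 190.4, 189, 205 and 172 CPM against 121 to 261 in the other 12 libraries, and Fbln5 48.5, 52.5, 34.6 and 46.6 CPM against 0 to 63.7. Fbln1 was present in all 16 libraries and highest in replicate 4, at 240.0, 281, 190.1 and 452 CPM against 147 to 392. Elsewhere on the same list, Fbln2 read 0.0804, 0, 0 and 125 CPM and elastin, Eln, 0, 0, 0 and 17.3 CPM, in replicate 4 alone of the 4. Among collagen-processing genes, the crosslinking enzyme gene Lox read 0, 0, 0 and 17.7 CPM and Pcolce, which helps trim procollagen, 0.0804, 0, 0 and 167 CPM. The list summed to 148, 118, 114 and 322 CPM against 83.1 to 173.

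The basement membrane list differed from the fibrous matrix. Its 12 genes summed to 369.7, 341, 295 and 414 CPM against 71.9 to 332, with replicates 1 and 2 also above the other 12 libraries. All 8 tested members had positive fold changes, 0 were called by edgeR or DESeq2 and 1 had an unadjusted p below 0.05 (median 0.99, 0.68 without replicate 4 and 0.71 with the length trend taken out). Lamc1, a laminin chain, read 25.3, 52.4, 24.1 and 40.1 CPM against 0.0882 to 32.2 (log2 fold change 2.18, SE 0.82, adjusted p = 0.475). Nid1, which links laminin to collagen, read 0, 0, 0 and 79.3 CPM and Lama4 0, 0, 0 and 23.4, and the highest of the other 12 libraries held 0.0903 and 6.50 CPM, so these 2 genes split as the fibrous matrix did.

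Over the 5 matrix lists together, 52 genes, replicate 4 was the highest of the 16 libraries for 30. The share over all genes is not given, for this count or the like counts of other lists, so such counts alone do not set a list apart. Most of the collagens and proteoglycans did not pass the filter on low counts. Of 10 collagens 2 were tested, Col5a1 and Col12a1, and of 8 proteoglycans 1, Ogn, all 3 also without replicate 4. The log2 fold change of Ogn was 0.52 with replicate 4 and -3.01 without it, when the edgeR adjusted p was 0.470. Other tested matrix genes mostly stayed positive without replicate 4. The 2 collagens had a median of 3.92 with it and 2.48 without it. In the elastic fibre list all 7 tested genes were positive, with 0 edgeR calls and 4 at an unadjusted p below 0.05. Their median was 1.91, and 2.02 without replicate 4, when 6 were positive. The summed level of the list did not show such a rise without replicate 4. It was 482, 537, 445 and 970 CPM in replicates 1 to 4, against 281 to 676 in the other 12 libraries. Fold changes of members near the floor weigh in these medians: Mfap5 read at most 2.19 CPM in the other 15 mouse-host libraries. Of 10 tested collagen-processing genes 8 were positive (median 0.39), and 6 without replicate 4 (median 0.11). The 12 fibroblast markers, among them Col1a1, Col1a2, Col3a1, Dcn and Lum of the lists above, summed to 55.9, 28.7, 66.9 and 2898 CPM in experiment 2, a mean of 762 ± 1424 (SD, n = 4), and to 5.65 to 189.6 CPM in the other 12 libraries, a mean of 70.6 ± 57.3 (SD, n = 12). The difference of 692 CPM gave p = 0.166 in an exact two-sided permutation test and 0.277 after adjustment over the 10 measures. Without replicate 4 it was -20.1 CPM (exact permutation p = 0.624), so the direction turned. Serpinf1 made up most of the sum outside replicate 4, at 42.7, 28.2 and 63.4 CPM in replicates 1 to 3.

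Replicate 4 was set against the other 15 mouse-host libraries gene by gene. Of 6413 genes of at least 20 CPM in it, 66 (1.03%) were at least 10 times the highest of the other 15, where values below 3 reads were counted as 3. The same count was 1 in each of replicates 1, 2 and 3 and at most 9 in the other 12 libraries, that of replicate 1 of experiment 3. These counts describe how the library was singled out and are no test. Of the 66 genes, 38 had at most 3 reads in each of the other 15 libraries and 16 were on the matrix or fibroblast lists.

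The 12 genes with the largest ratio were C3, Serping1, Col1a1, Smoc2, Fbln2, Cd248, Col3a1, Pi16, Nid1, Col6a2, Lum and Col1a2. C3, the central complement protein, read 0, 0, 0.0764 and 353 CPM, and Serping1, the C1 inhibitor, 0.0804, 0, 0.382 and 311 CPM. Pi16, a marker of adventitial fibroblasts, read 144 CPM in replicate 4, and Cd248, endosialin of stromal cells, 103 CPM. The matrix-associated Smoc2 read 138 CPM there. Gsn, the actin-severing protein gelsolin, had the highest level of the 66, at 9.32, 0.0798, 0.382 and 3409.7 CPM against at most 29.3 in the other 12 libraries.

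**Figure D5:**
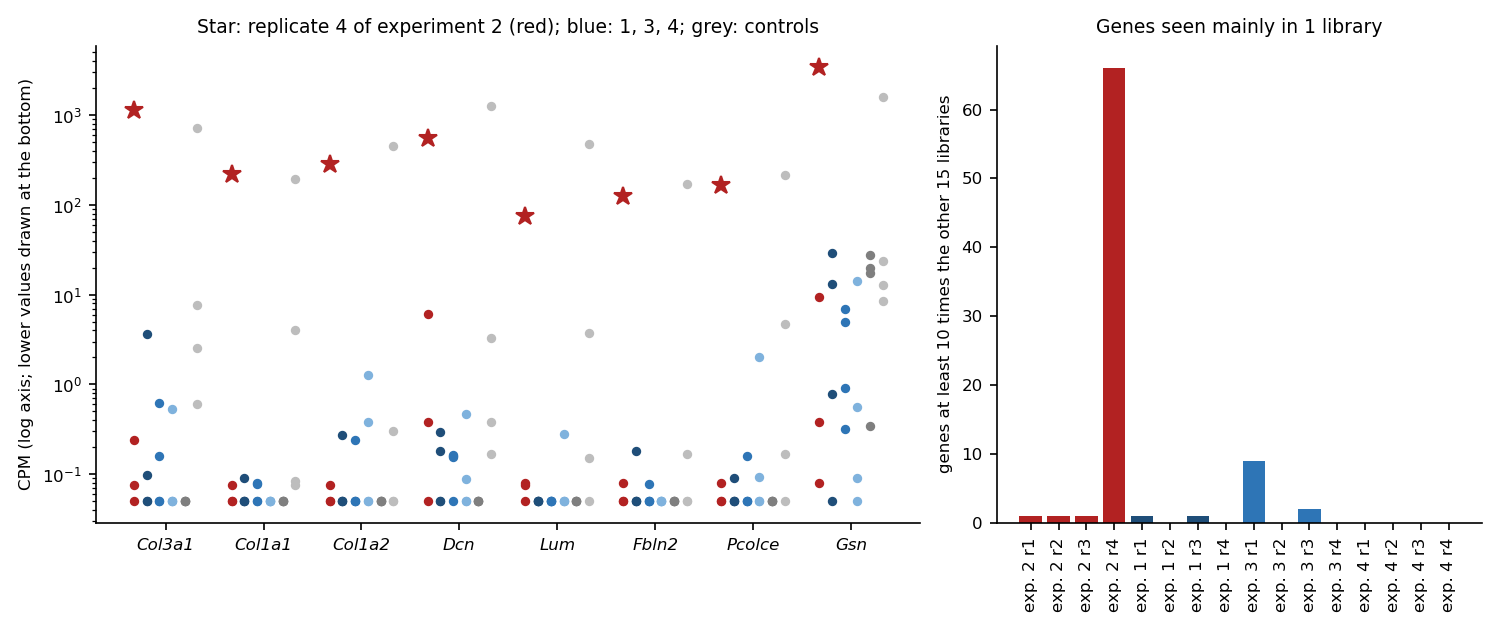
Left, CPM on a log axis of 8 genes in the 16 mouse-host and 8 control libraries, values under 0.05 CPM drawn at 0.05, with replicate 4 of experiment 2 as a star; right, the number of genes in each mouse-host library that are at least 10 times the highest of the other 15. Replicate 4 stands at 66 genes and the other 15 libraries at 0 to 9, and 1 control library also reaches high levels of these genes.

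Markers of other cell types gave these values in replicate 4. The 10 endothelial markers summed to 0.310 CPM, against 0.402, 0.160 and 0.0764 CPM in replicates 1 to 3, with Cdh5, Kdr and Flt1 at 0. The 10 markers of pericytes and smooth muscle summed to 59.4 CPM, against 4.82, 5.66 and 2.83, with Pdgfrb at 33.1 and with Acta2, Myh11 and Rgs5 at 0. Of these 10, 6 were detected in the 16 mouse-host libraries, and replicate 4 was the highest of the 16 for 3. The 9 macrophage markers summed to 8.16 CPM, with Adgre1, Csf1r and C1qa at 0, and the 8 thyroid follicular markers to 0. The macrophage sum was 6.19, 4.23 and 0.0764 CPM in replicates 1 to 3 and 0 to 13.7 in the other 12 libraries. Replicate 4 was the highest of the 16 for 1 of the 6 macrophage markers detected. Pdgfra, a receptor of fibroblasts, read 45.3 CPM, and 0.241, 0 and 0 CPM in replicates 1 to 3. Parathyroid genes were still high in replicate 4, with Pth at 75258 CPM and Gcm2 at 942. It was the lowest of the 4 libraries of experiment 2 for Gcm2 and Chga, though not for Pth. The parathyroid identity list summed to 330808, 304018, 307400 and 286869 CPM in replicates 1 to 4, against 267700 to 365677 in the other 12 libraries. The part of cells of another type in these values was not tested. Markers of other cell types were summed in the same way: T cell markers summed to 0.688 to 18.8 CPM in experiment 2, B cell markers to at most 0.840, erythroid markers to at most 3.00, adipocyte markers to at most 3.70 and skeletal muscle markers to 3.51 to 13.8. Schwann cell markers summed to 54.0, 28.2, 42.3 and 76.3 CPM against 20.9 to 70.3, C cell markers to 206 to 280.4 against 128 to 527 and thymic epithelial markers to 239 to 332 against 191 to 529. Of the sex-linked genes, 1 was tested and 0 were called by edgeR or DESeq2.

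Replicate 3 of control experiment 2 carried part of the same genes. Of the 66, 39 reached 20 CPM in it, and 40 were higher in replicate 4 of experiment 2 than in all other 31 libraries of the series. The first count is given without the share over all genes or the same count in the other control libraries. The second is partly set in advance, since the 66 were picked for high values in replicate 4 of experiment 2. Its 12 fibroblast markers summed to 3874 CPM, against at most 199 CPM in the other 7 control libraries. Col3a1 read 716 CPM and Dcn 1256 CPM in it, against at most 7.71 and 3.25 in the other 7. Pdgfrb read 0 there and 33.1 CPM in replicate 4 of experiment 2.

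Immediate early genes, which answer to stimulation within minutes, were also high in replicate 4. Their sum was 398, 338, 285 and 1474 CPM in replicates 1 to 4, against 259 to 1173 in the other 12 libraries. Of 22 listed genes, replicate 4 was the highest of 16 for 8, with no share over all genes to set beside it. Egr1 read 47.5, 1.83, 8.63 and 390.2 CPM against 0.461 to 298 in the other 12, Jun 52.6, 75.1, 45.2 and 275 CPM against 24.4 to 98.6, and Dusp1, a phosphatase that ends the response, 0.562, 9.09, 12.3 and 182 CPM against 0 to 84.1. Fos ran differently: replicates 1 to 3 read 15.03, 1.91 and 14.5 CPM, below the 22.1 to 247 of all 12 other libraries, and replicate 4 read 108. Myc read 27.6 CPM in replicate 4 and 0 in the other 15. Of 14 tested genes 0 were called by edgeR, 3 had an unadjusted p below 0.05 and 1, Jun, was called by DESeq2, and 9 were positive with all 4 libraries and 5 without replicate 4, when the median went from 0.35 to -0.92. The fibroblast marker values of replicate 4 stand beside these, and their part was not tested.

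Cell-cycle genes leaned low in experiment 2 against the mean of the other 3 experiments, without passing edgeR's test, and experiment 4 was low too. Their sum was 176, 138, 138 and 394 CPM against 130.0 to 1238 in the other 12 libraries, so all 4 libraries lay within that range. Experiment 4 read 138, 210, 160 and 152 CPM. The high sums lay in experiments 1 and 3, which spanned 186 to 829 and 130.0 to 1238 CPM. A low level was thus not particular to experiment 2. Of 23 tested genes 19 had negative fold changes, 0 were called by edgeR, 4 had an unadjusted p below 0.05 and 2, Mki67 and Birc5, were called by DESeq2, with a median of -1.58, and -2.35 without replicate 4. Mki67, a marker of dividing cells, read 0, 0.0798, 0.0764 and 0.207 CPM, against 0 to 22.2 in experiment 1, 0 to 35.9 in experiment 3 and 0 to 8.67 in experiment 4. Birc5, needed for chromosome segregation, read at most 0.207 CPM in experiment 2, which is 2 reads, against 0 to 53.5. Replicate 4 held the DNA replication genes Mcm2 at 101 CPM and Mcm6 at 68.3, each the highest of the 4 libraries, against at most 98.7 and 117 CPM in the other 12.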

How the data were processed

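Bulk RNA-seq of picked parathyroid cells was deposited as 1 table per library. Per the submitters' processing notes, the authors used Salmon and GRCm39; no source used here gives a version or annotation. For each transcript the deposited table lists an expected count, a TPM, a length and an effective length. Of 116747 transcripts, 115685 matched a gene by Ensembl identifier in GENCODE M21, which served for names and types only; the other 1062 held 0.493% of reads and were left out. Summing the expected counts by gene and rounding gave 35458 genes. TPM entered the alternatives and the length weights, and effective length an alternative.

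The 16 mouse-host libraries were fitted in edgeR 4.0.16 (R 4.3.3) with a coefficient per experiment, TMM factors over all 32 libraries, the default expression filter and Benjamini-Hochberg adjustment; the contrast was experiment 2 minus the mean of the other 3. CPM uses the same factors. DESeq2 1.42.0 and limma 3.58.1 were alternatives. Single library measures were compared by exact two-sided permutation over 1820 arrangements. The fit was tested on simulated data. No 2 libraries of an experiment agreed within sampling noise (lowest chi-square over degrees of freedom 45.5 among 24 pairs).

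The members, the 27 gene lists and the 14 marker lists were chosen with earlier results of these data known. The naming rule took called genes that were also called against each other experiment, averaged at least 8 CPM and did not overlap the other 12 libraries, called list members, the parathyroid list (2 of its members are counted but not reported here by name), the 5 matrix lists and the 12 genes most particular to replicate 4. Of 605 listed symbols, 599 matched. Other genes are named as examples, after their values were seen. Alternatives covered scaling, filters, tools, transcript length, left-out libraries and experiments and a replicate block; the removal of a GC trend and the length slope without experiment 1 or 3 were chosen after seeing the data.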

Additional observations from a re-analysis of the deposited data

Results flagged for a closer look

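The values looked at were 52: the summed list levels, the library measures and the level of Zcchc18, the 1 gene named by the rule on called genes. Of these, 9 had 1 library of experiment 2 far from its other 3 by a gap test at the 95% level. Such a test flags about 1 in 20 groups by chance. Of the 9, 8 were highs of replicate 4. Its sums were 1993 CPM for fibrillar and beaded collagens, 745 for small leucine-rich proteoglycans, 322 for collagen-processing genes, 1474 for immediate early genes, 394 for cell-cycle genes, 59.4 for pericyte and smooth muscle markers and 2898 for fibroblast markers, the last counted both as a list and as a measure. The fibroblast list shares Col1a1, Col1a2 and Col3a1 with the collagens and Dcn and Lum with the proteoglycans, so these sums are not separate signals. The remaining case was the adipocyte marker sum of replicate 1, at 3.70 CPM, with the other 3 libraries at 0.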

How the results depend on the processing

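The 11 calls stayed at 9 to 14 genes with other scaling factors, a mean of at least 8 CPM, protein-coding genes alone, or the length trend, the GC trend or the effective length taken into account. The count was 62 with no filter, 175 by DESeq2, 32 by limma voom, 20 by limma-trend on TPM, 25 without experiment 1, 4 without experiment 3, 5 without experiment 4, labelled male, and 0 on counts summed per experiment, where edgeR had 2 residual degrees of freedom and 397 genes an unadjusted p below 0.05. Leaving out each library gave 0 to 15 calls, and no log2 fold change of the 11 genes changed sign. The cause of these shifts was not tested, beyond the fewer samples. The count called against each experiment, 1, was 0 with DESeq2 size factors, with TMM over 16 libraries and with effective lengths, 3 at 8 CPM or more, 32 by DESeq2, 2 with the GC trend removed, 3, 5 and 2 without experiments 1, 3 and 4, and 0 to 2 with a library left out.

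The length slope difference of 0.154 was 0.0763 (exact permutation p = 0.122) with median annotated lengths, 0.0982 (p = 0.184) without experiment 1 and 0.133 to 0.172 with a library left out, when p ran from 0.0198 to 0.114. The fibroblast marker difference of 692 CPM was 978 over all matrix lists (exact permutation p = 0.0297), 107 over these lists without replicate 4 (p = 0.237, chosen after seeing the data), and -20.1 to 936 with a library left out, the lowest without replicate 4.

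Same-numbered libraries did not deviate together: of 24 pairs 1 had a correlation over 0.1 (range -0.0747 to 0.128), and 4 of 16 libraries correlated best with their own number, so numbers were not taken to pair samples. With a replicate block, 2 genes were called, and 0 against each experiment; with the block and the length trend removed, 10 and 0. In an exact permutation within the block, the slope difference gave p = 0.0352 and the fibroblast difference p = 0.18.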
